A study of Homo sapiens with 2 samples.

Results

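The Rag GTPases, the Ragulator scaffold and the folliculin complex form the platform at the lysosome surface through which amino acids reach mTOR complex 1, and their mRNAs were read in C4-2 cells, a human prostate cancer line, after transfection with miR-99a or with the control si-GL2. The set was a list of 9 genes, RRAGA, RRAGB, RRAGC, RRAGD, LAMTOR1, LAMTOR2, LAMTOR3, FLCN and FNIP1. Its probe sets were all those that the platform annotation gives to exactly 1 of these genes, which were 19 of 54675 on the array and covered 8 of the 9 genes. No probe set given to LAMTOR1 alone was among those analysed here. The list was drawn up with the differences between these arrays already known, RRAGD among them, so every difference below is a description and none is a test.

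The experiment consisted of 2 arrays of total RNA, 1 from C4-2 cells collected 48 h after transfection with miR-99a and 1 from C4-2 cells collected 48 h after transfection with si-GL2. Both cultures were the same line in the same serum-containing medium and both received a small RNA with the reagent RNAiMax. The name si-GL2 is that of an siRNA against firefly luciferase, and no untransfected culture was used here. With 1 array per group there was no replicate error and no p-value, and neither the number of cells behind each array nor the variation between cultures is known. A lower signal from fewer cells of a kind and one from less RNA per cell cannot be told apart.

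The Rags are small GTPases that work as a pair, RagA or RagB with RagC or RagD. Ragulator, built from the LAMTOR proteins, anchors the pair to the lysosome, and when amino acids are plentiful the charged pair recruits mTOR complex 1 to that membrane, where RHEB switches the kinase on. Folliculin with a FNIP partner acts on RagC and RagD as their GTPase-activating protein, and the Rags also hold the lysosomal transcription factors TFEB, TFE3 and MITF in the cytoplasm, while genes of this group, RRAGC, RRAGD, FLCN and FNIP1 among them, are known targets of those same factors.

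The sequence that the design adds to the cells is shown first, since the comparison is defined by it. The labels name miR-99a without its arm. Both mature arms in RefSeq (GRCh38.p14) come from chromosome 21, plus strand, at chr21:16539101-16539122 for the 5p arm and chr21:16539138-16539159 for the 3p arm. In the lines below, written 5′ to 3′, capitals mark the seed, bases 2 to 8.
hsa-miR-99a-5p: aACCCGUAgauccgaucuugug
hsa-miR-99a-3p: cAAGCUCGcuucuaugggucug
hsa-miR-100-5p: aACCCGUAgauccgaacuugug
The 5p arm has the same seed as miR-100-5p, shown for comparison, and as miR-99b-5p. Transcript sequences of the member genes were not used here, so no target site is given for any of them.

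Signals are the deposited intensities on a linear scale. Differences are given as log2(signal + 16) with miR-99a minus the same with si-GL2, a scale that understates the change of dim probe sets. A probe set counted as past the level limit when its mean log2 level over both arrays reached the median of all probe sets, equal to a signal of 47.2, and 18 of the 19 did. Genes were counted as lower or higher from 1.5-fold (0.58 on the log2 scale), a rule of size; smaller differences are only said to lie below or above the control. The medians of the arrays were 47.8 with miR-99a and 47.4 with si-GL2. The 18 probe sets of the hybridisation spikes differed by between -0.12 and 0.06. As a measure of spread, each member is set beside the SD of the differences of the 1000 named probe sets nearest to it in level, which holds real changes as well as noise. Of the luminal prostate markers, 7 of 7 measured were past the limit, with differences from -0.20 for KLK2 to 0.31 for KRT8; of leukocyte, endothelial, fibroblast and basal markers 1 of 3, 1 of 3, 3 of 4 and 0 of 2 were.

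Of the 19 member probe sets, 15 (78.9%) lay below 0, beside 51.0% of all 41091 probe sets with 1 gene name. At 1.5-fold, 1 was lower and 0 were higher, beside 3.72% lower and 3.39% higher of those 41091. The probe set that was lower belonged to RRAGD. Among the 18 past the limit the share lower was 5.56%, against 2.76% lower and 1.53% higher of the 22401 named probe sets past the limit. Of the 18, 14 (77.8%) lay below 0, beside 54.0% of the named probe sets past the limit. The median difference was -0.17 over the 18, against -0.02 over the named probe sets past the limit. Over all 19 it was also -0.17, against -0.0063 over all named probe sets. Since the list was drawn up with this contrast in view, nothing is read from these shares.

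**Figure D1:**
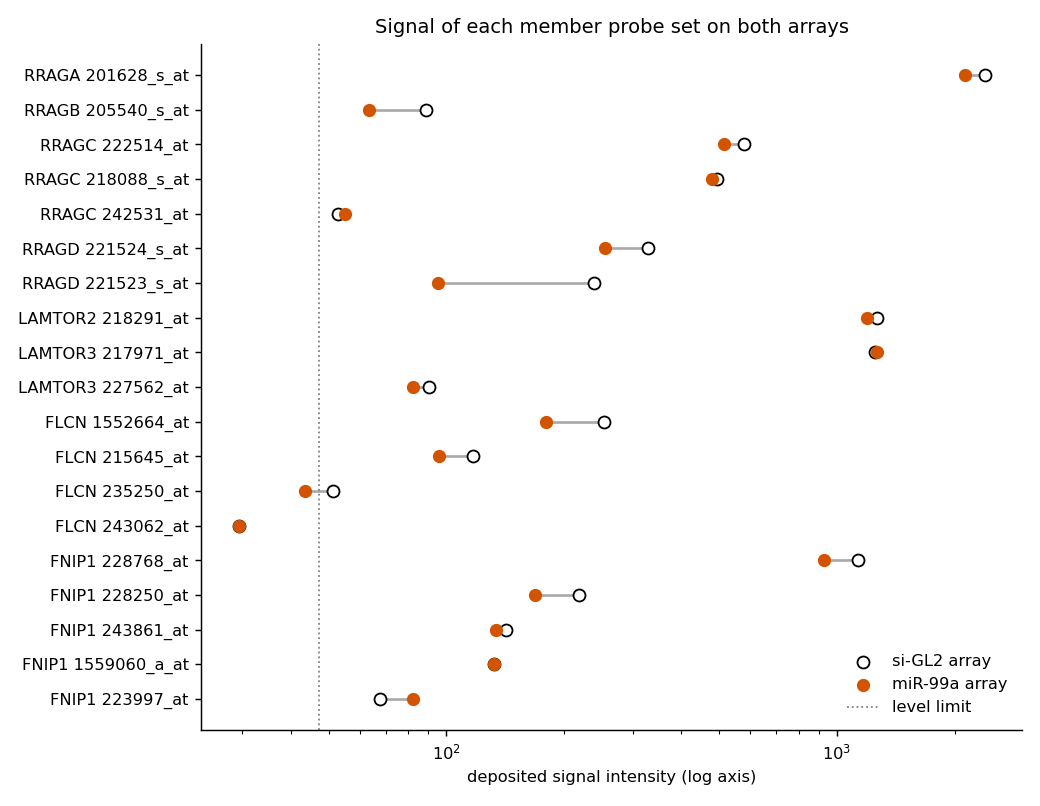
Deposited signal intensity (log axis) of each of the 19 member probe sets on the miR-99a array (filled) and the si-GL2 array (open), 1 array each, with the level limit as a dotted line. The widest gap is that of RRAGD 221523_s_at, 95.3 against 238, while the LAMTOR2 and LAMTOR3 points nearly coincide.

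RRAGD, which encodes the RagD GTPase, had the lowest value of the set and also the least agreement within 1 gene. Its probe set 221523_s_at read 95.3 with miR-99a and 238 with si-GL2. Its other probe set, 221524_s_at, read 255.5 with miR-99a and 328 with si-GL2. Both therefore lay below the control, the first by 60.0% of the control signal and the second by 22.2%.

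On the log2 scale RRAGD 221523_s_at was at -1.19, a 2.28-fold lower value and 3.97 SD of probe sets of like level (SD 0.30) below 0. Only 33 of the 22401 named probe sets past the limit, or 0.15%, were as low or lower. RRAGD 221524_s_at was at -0.34, 1.20 SD (SD 0.29) below 0, and 10.7% of named probe sets were as low or lower. The dimmer of the pair thus lay far outside the spread of probe sets of like level, and the brighter just beyond 1 SD of it. The mean over both was -0.77.

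The disagreement itself was unusual for this array pair. In the 5842 genes with at least 2 probe sets past the limit, the difference by the brightest and that by the second brightest were a median of 0.14 apart, and 95% of genes were within 0.54. For RRAGD they were 0.85 apart, a gap reached by 46 of those genes (0.79%). The size of the RRAGD difference therefore depends on the probe set, and its sign does not. Sharing a sign was common, as the brightest and second brightest did so in 68.1% of those genes. Both RRAGD probe sets carry the _s_ suffix, given to probe sets that can match more than 1 transcript, and which transcripts or ends of the gene each one reads was not tested.

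**Figure D2:**
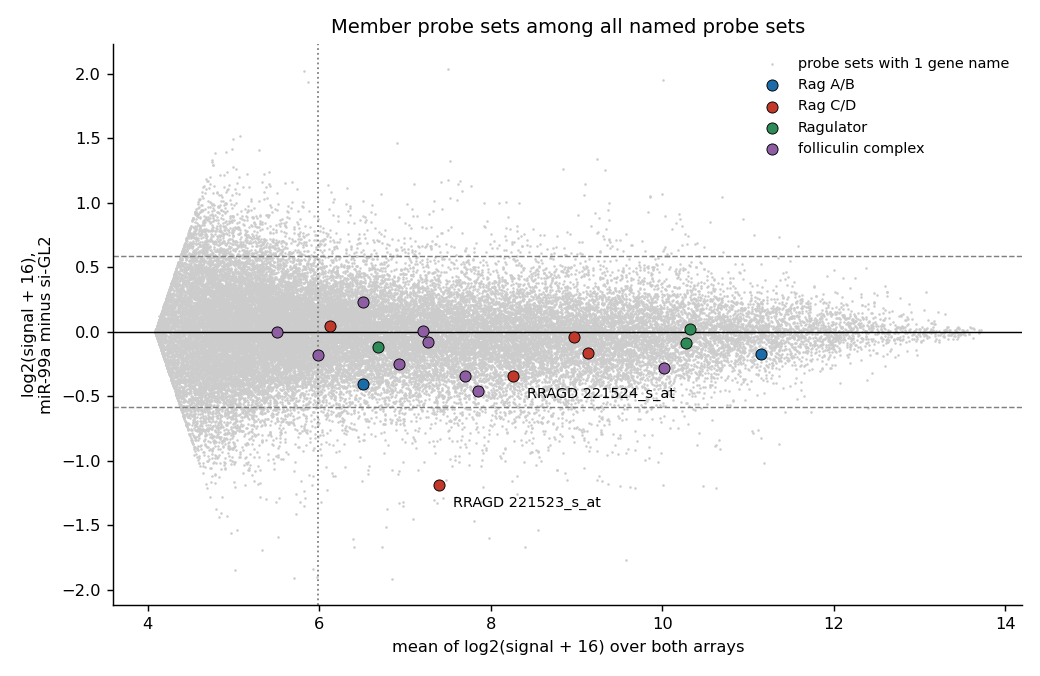
Difference (log2(signal + 16), miR-99a minus si-GL2) against mean log2 level for all 41091 probe sets with 1 gene name (grey) and for the 19 member probe sets by role (coloured). Dashed lines mark 1.5-fold and the dotted line the level limit; RRAGD 221523_s_at at -1.19 is the only member outside the dashed lines.

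RRAGC encodes RagC, the closest relative of RagD and its alternative in the pair. Its brightest probe set, 222514_at, read 513 with miR-99a and 577 with si-GL2, a difference of -0.17. The next, 218088_s_at, read 479 and 494 (-0.04). A dim one, 242531_at, read 55.0 and 52.9 (0.04). All 3 lay within 1 SD of 0, between 0.62 SD below and 0.15 SD above. RRAGC was thus nearly level on the 2 arrays by each of its probe sets, with gaps of the usual size between them (0.12 between its brightest pair, as large or larger in 54.9% of genes).

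Set side by side, the RagC and RagD genes gave differences of unequal size. RRAGD 221523_s_at was between 1.03 and 1.24 further below 0 than the RRAGC probe sets on the log2 scale. RRAGD 221524_s_at was between 0.18 and 0.39 further below 0, less than the gap of 0.85 between the RRAGD probe sets themselves. Whether RRAGD and RRAGC differed between conditions could not be tested with 1 array per group.

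RRAGA and RRAGB encode RagA and RagB, near-identical partners of RagC and RagD. RRAGA had 1 probe set, 201628_s_at, which read 2126 with miR-99a and 2394 with si-GL2, a difference of -0.17. RRAGB had 1 probe set, 205540_s_at, which read 63.3 with miR-99a and 88.9 with si-GL2, a difference of -0.40. RRAGB was 1.43 SD and RRAGA 0.92 SD of probe sets of like level below 0 (SDs 0.28 and 0.18). The RRAGB value came from a dim probe set and ran from -0.48 with a pseudocount of 1 to -0.26 with one of 64, always short of 1.5-fold. Both carry the _s_ suffix. Which transcripts each one reads, and whether signal is shared between the paralogues, was not tested, so both values are uncertain.

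By brightest probe set the measured Ragulator genes lay nearest to 0 of the set. LAMTOR2, one of the roadblock-domain subunits, read 1191 with miR-99a and 1264 with si-GL2 (-0.08). LAMTOR3, its partner, which was first known as the MEK scaffold MP1, read 1267 and 1250 by 217971_at (0.02) and 82.4 and 90.6 by the dimmer 227562_at (-0.11). All 3 probe sets were within 0.40 SD of 0.

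**Figure D3:**
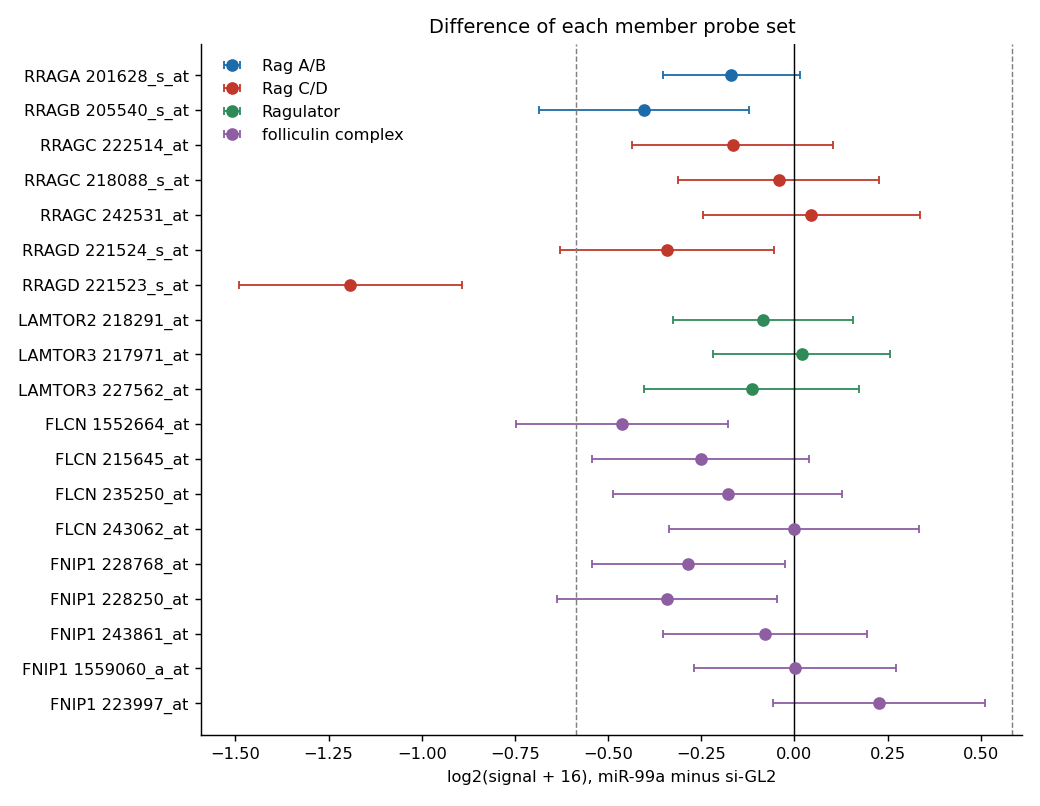
Difference of each member probe set (log2(signal + 16), miR-99a minus si-GL2), coloured by role; bars are the SD of the 1000 named probe sets nearest in level and are not replicate errors. Bars of the 3 Ragulator and 3 RRAGC probe sets all cross 0, as do those of RRAGA and of some FLCN and FNIP1 probe sets. RRAGD 221523_s_at lies beyond the dashed 1.5-fold line with its whole bar.

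FLCN encodes folliculin, the tumour suppressor of Birt-Hogg-Dubé syndrome. Its brightest probe set, 1552664_at, read 180 with miR-99a and 254 with si-GL2, a difference of -0.46 or 1.62 SD below 0; 5.36% of named probe sets were as low or lower. The next, 215645_at, read 95.6 and 117 (-0.25). Another, 235250_at, stood at the level limit with 43.5 and 51.3 (-0.18).

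All 3 FLCN probe sets past the limit thus lay below the control, none by 1.5-fold. The fourth, 243062_at, was below the limit at 29.5 on both arrays and differed by -0.00095. A further probe set that the annotation gives to FLCN and PLD6 together was also below the limit, at 28.2 and 27.2, and stayed outside the set.

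FNIP1 encodes a binding partner of folliculin, and its 5 probe sets did not agree in sign. The brightest, 228768_at, read 925 with miR-99a and 1130 with si-GL2 (-0.28). The next, 228250_at, read 169 and 218 (-0.34). Both were 1.10 to 1.15 SD below 0.

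The dimmer FNIP1 probe sets were nearer to 0 or above it. Probe set 243861_at read 134 and 142 (-0.08), and 1559060_a_at read 133 and 132 (0.003). The dimmest, 223997_at, read 82.1 with miR-99a and 67.8 with si-GL2 (0.23), the highest value of the whole set. The mean over all 5 was -0.09.

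By brightest probe set, the order of the 8 genes from lowest to highest difference was FLCN (-0.46), RRAGB (-0.40), RRAGD (-0.34), FNIP1 (-0.28), RRAGA (-0.17), RRAGC (-0.17), LAMTOR2 (-0.08) and LAMTOR3 (0.02), with 0 of 8 at 1.5-fold, against 2.9% of all 12218 genes lower and 1.21% higher. No neighbours in this order differed by more than the SD of probe sets of like level. By the mean over probe sets RRAGD moved to the lowest place at -0.77, followed by RRAGB at -0.40 and FLCN at -0.22.

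The genes around the Rags were read from a list of 41 genes, of which 39 had a probe set with 1 gene name, 35 of them past the limit. Over all 12218 genes past the limit by brightest probe set, the median was -0.03 and 56.3% lay below 0. At 1.5-fold, 2.9% of them were lower and 1.21% higher. By brightest probe set 26 of the 35 genes around the Rags lay below 0, with a median of -0.14. Of the 35, 2 (5.71%) passed 1.5-fold downward and 1 (2.86%) upward. In the 21 of these genes with another probe set past the limit, the brightest had a median of -0.03 with 14 below 0, and the second-brightest a median of -0.01 with 11 below 0 and 0 at 1.5-fold in either direction. For second-brightest probe sets the share over all genes was not computed, so nothing is read from their counts. Both genes past 1.5-fold downward, MTOR and SLC38A9, had a single probe set past the limit.

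The other subunits of the same complexes stayed within 1.5-fold. LAMTOR4, another Ragulator subunit, was 655 with miR-99a against 794 with si-GL2 (-0.27). LAMTOR5, the fifth subunit, was at -0.01 and 0.05 by its 2 probe sets, from signals of 3786 against 3808 and 3647 against 3515. FNIP2, the paralogue of FNIP1, lay below the control by each of its 3 probe sets past the limit, between -0.29 and -0.21, short of 1.5-fold. Another FNIP2 probe set, below the limit, was at 0.14.

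Of the amino acid sensors, SLC38A9, the lysosomal arginine transporter that signals to the Rags through Ragulator, was 196 with miR-99a against 316 with si-GL2. This difference of -0.65 was past 1.5-fold; a second probe set below the limit was at -0.16 and the mean of both was -0.41. CASTOR1, the cytosolic arginine sensor, went the other way, at 181 against 111 (0.64), and at 153 against 110 (0.42) by its other probe set. The leucine sensor SESN2 was at 0.37 and 0.54 by its 2 probe sets, while its relatives SESN1 and SESN3 were at -0.29 and -0.47; the 6 SESN3 probe sets past the limit ran from -0.55 to 0.01. The sensors thus did not move in 1 direction.

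In GATOR2, the complex that relieves GATOR1 inhibition of the Rags, all 5 genes lay below 0 by brightest probe set. Of all genes past the limit, 56.3% did. The 5 ran from -0.43 for MIOS to -0.03 for WDR59, and 0 reached 1.5-fold. By its other probe set past the limit WDR59 was at 0.02, and its mean over all 4 probe sets was 0.13. The brightest probe set of SEH1L, also in GATOR2, gave -0.43, its other one 0.11. SKP2, a ubiquitin ligase subunit that acts on RagA, was the second highest on the list at 0.44, with 3 probe sets between 0.08 and 0.44.

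Downstream of the Rags, MTOR, the kinase they bring to the lysosome, was 97.9 with miR-99a against 181 with si-GL2 (-0.79), the lowest of the list, with a second probe set below the limit at 0.18. RPTOR, the raptor subunit that binds the Rags, was at -0.17. RHEB, the GTPase that activates the kinase, was 3873 against 3934 (-0.02), and its 7 probe sets past the limit ran from -0.45 to 0.46. TSC1 and TSC2, the inhibitors of RHEB, were at 0.02 and 0.19, and a second TSC2 probe set below the limit was at -0.10.

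**Figure D4:**
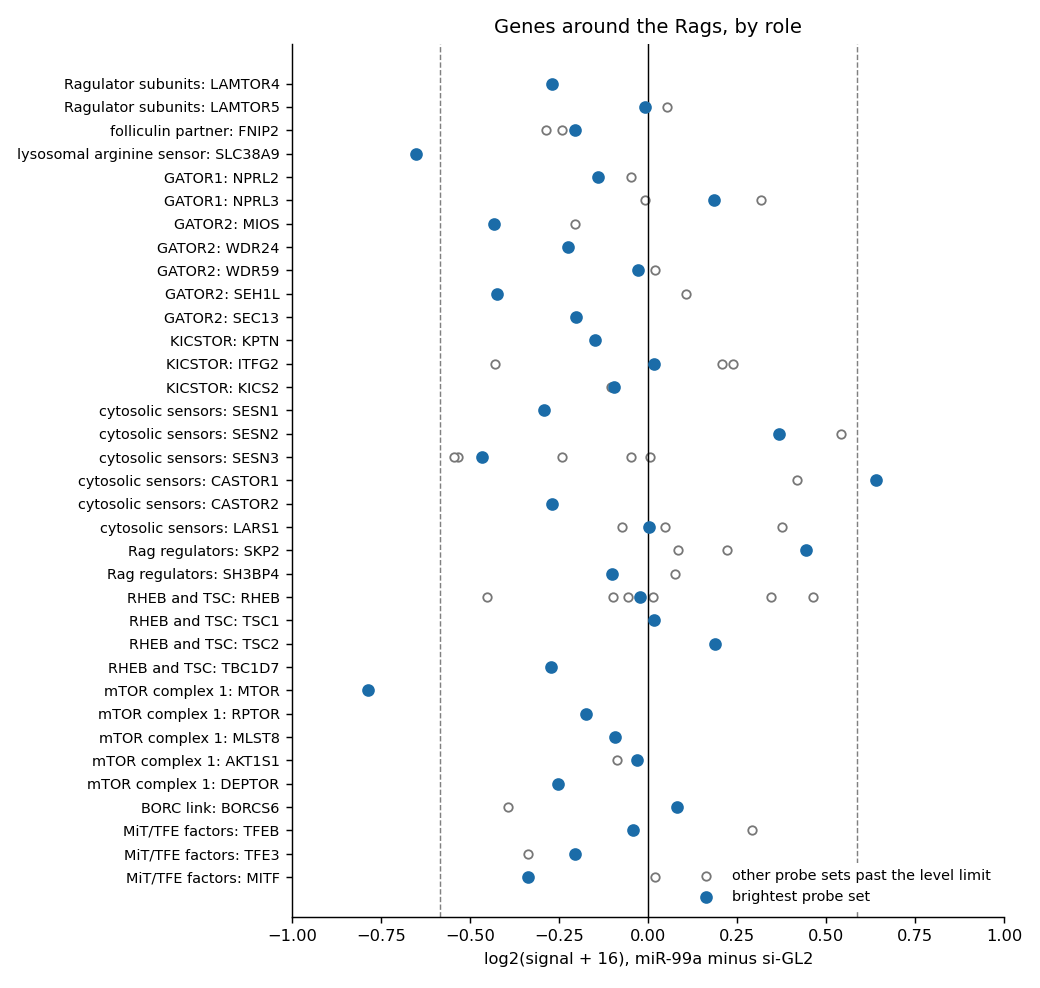
Differences (log2(signal + 16), miR-99a minus si-GL2) of the 35 genes around the Rags whose brightest probe set was past the limit, grouped by role; filled points are the brightest probe sets, open points the others past the limit, dashed lines 1.5-fold. MTOR (-0.79) and SLC38A9 (-0.65) lie left of the lines and CASTOR1 (0.64) right of them.

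The Rags and folliculin also govern the MiT/TFE transcription factors. TFEB was 174 with miR-99a against 180 with si-GL2 by one probe set (-0.04) and 197 against 158 by another (0.29). TFE3 was 1012 against 1169 (-0.21), and the other probe set past the limit gave -0.34. MITF was 81.0 against 106.5 (-0.34), with its second at 0.02, and TFEC was below the limit. None of the 3 measured past the limit reached 1.5-fold.

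Of a list of 33 genes known as targets of these factors, nearly all of the lysosome or autophagy, with the coactivator gene PPARGC1A and with FNIP2, which is also among the genes around the Rags, 31 had a probe set with 1 gene name and 30 were past the limit. By brightest probe set 22 of the 30 (73.3%) lay below 0, beside 56.3% of all genes past the limit. At 1.5-fold, 4 (13.3%) were lower and 0 higher, beside 2.9% lower and 1.21% higher of all genes past the limit. The median of the 30 was -0.16, beside -0.03 over all those genes. In the 17 of the 30 with another probe set past the limit, the brightest had a median of -0.17. The second-brightest had one of -0.22, and each had 12 below 0. None of those second probe sets passed 1.5-fold. The matching share over second-brightest probe sets of all genes was not computed, so nothing is read from that count. Lysosomal genes were already known to lie low on these arrays when the list was written, so the counts are not independent evidence of a direction.

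The 4 genes past 1.5-fold were parts of the lysosome itself. NEU1, the lysosomal sialidase, was 202 with miR-99a against 345 with si-GL2 (-0.73). GPNMB, a membrane glycoprotein used as a readout of TFE3 activity, was 137 against 237 (-0.73), and 139 against 196 (-0.45) by its other probe set. CTSF, a cathepsin, was 431 against 718 (-0.71), and MCOLN1, the lysosomal calcium channel, was 128 against 202 (-0.59).

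NEU1, CTSF and MCOLN1 each rested on 1 probe set. Highest on the list were SGSH, a heparan sulphate-degrading enzyme, at 0.23 (-0.06 by its second probe set) and the tetraspanin CD63 at 0.22, from 4676 against 4003. CTSD, the aspartic protease cathepsin D, was level at -0.03.

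**Figure D5:**
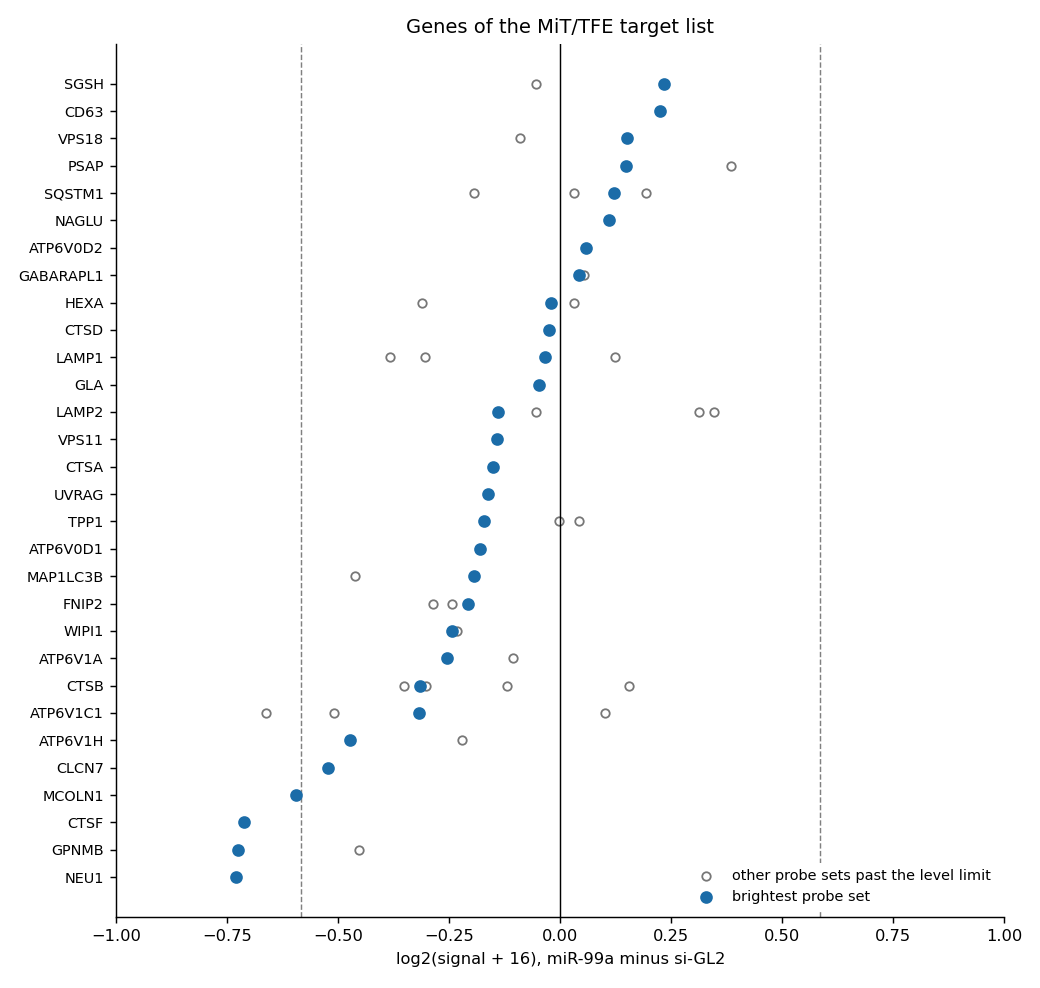
Differences (log2(signal + 16), miR-99a minus si-GL2) of the 30 MiT/TFE target genes past the limit, ordered by brightest probe set (filled), with their other probe sets past the limit (open) and 1.5-fold as dashed lines. The 4 genes left of the line are NEU1, GPNMB, CTSF and MCOLN1, and no brightest probe set lies right of the other line.

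Promoters of the members were read for the element these factors bind, since the set holds known targets of them. RefSeq windows of 300 bases (GRCh38.p14; 250 before the annotated start and 50 after) were at hand for 7 of the 9 genes, in 8 windows, with RRAGA and RRAGD unmatched. The core CACGTG, the same on both strands, was in 7.26% of all 35116 windows of this length, and CACGTGA or its other strand TCACGTG, which contains that core, in 3.71%. The full CLEAR palindrome, which is this core with GT before it and AC after it and so contains both, was in 0.35%.

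RRAGB held 3 cores, beginning at positions -115, -25 and 8 from the start, and the one at -25 was the full palindrome; 0.094% of all windows held 3 or more cores. FNIP1 held 2 cores, at -175 and -94, and 0.66% of windows held 2 or more. RRAGC held 1, at -112. Each of these was followed by an A, as CACGTGA. LAMTOR1 held 1, at -165, preceded by a T. Which factors bind any of these cores was not tested. The windows of FLCN, LAMTOR2 and LAMTOR3 held no core, which says only that those letters are not there.

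The 250 bases before the start of the 3 measured genes with a core are shown 5′ to 3′ on the gene's strand, with each CACGTG in capitals. The spacing of the cores before the start can thus be seen. The RRAGB core at 8 lies after the start and is not in the stretch shown. RRAGB is on the plus strand at chrX:55717499-55717748, RRAGC on the minus strand at chr1:38859773-38860022 and FNIP1 on the minus strand at chr5:131797018-131797267.
RRAGB: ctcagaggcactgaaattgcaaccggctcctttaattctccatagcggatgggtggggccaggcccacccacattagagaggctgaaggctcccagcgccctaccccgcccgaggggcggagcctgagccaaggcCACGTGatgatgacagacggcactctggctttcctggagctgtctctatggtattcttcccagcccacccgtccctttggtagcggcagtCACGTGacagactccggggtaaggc
RRAGC: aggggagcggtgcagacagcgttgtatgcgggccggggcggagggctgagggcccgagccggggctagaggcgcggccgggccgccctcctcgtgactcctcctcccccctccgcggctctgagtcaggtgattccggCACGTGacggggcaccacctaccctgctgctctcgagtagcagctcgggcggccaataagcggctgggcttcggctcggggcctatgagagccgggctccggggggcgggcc
FNIP1: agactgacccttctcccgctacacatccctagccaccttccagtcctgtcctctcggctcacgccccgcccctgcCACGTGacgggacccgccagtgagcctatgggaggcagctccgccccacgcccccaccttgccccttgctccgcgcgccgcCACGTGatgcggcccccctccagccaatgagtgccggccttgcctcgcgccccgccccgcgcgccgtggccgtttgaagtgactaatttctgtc
By brightest probe set these genes differed by -0.40, -0.17 and -0.28, and those whose windows held no core, FLCN, LAMTOR2 and LAMTOR3, by -0.46, -0.08 and 0.02. With so few genes nothing is read from the order.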

How the data were processed

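Total RNA of 2 C4-2 cultures, prepared with Trizol and biotin-labelled as Affymetrix prescribes (per the labels' protocols), was hybridised to 1 array per group. The authors deposited 1 linear signal intensity per probe set; not given in the sources used here are the summary algorithm, its scaling and a genome build. No file gives a detection call, and the number of arrays limits the precision.

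By the platform annotation, 41091 probe sets had 1 gene name, 1801 several, 11721 none, and 62 were controls; identifiers were updated through a GRCh38.p14 table, which changed 0 symbols. Differences were log2(signal + 16), uncentred because the array medians differed by 0.01, under the limit of 0.1. A gene stood by its brightest probe set.

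The members, lists and rules were chosen with earlier results of these data known. Named genes are all members, the list genes past 1.5-fold, and the 2 lowest and 2 highest of each list. Also named are 8 pathway genes fixed in design (TFEB, TFE3, MITF, MTOR, RPTOR, RHEB, TSC1, TSC2). Named after their values were seen were LAMTOR4, LAMTOR5, FNIP2, SESN1, SESN2, SESN3, MIOS, WDR59, SEH1L, TFEC, CTSD, PPARGC1A and those of the closing section. In each list 2 genes were not analysed here. Python 3.11.15, numpy 2.4.6, pandas 2.3.3 and matplotlib 3.10.9 were used.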

Additional observations from a re-analysis of the deposited data

How the results depend on the processing

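Alternatives were pseudocounts of 1 and 64, centring, quantile normalization, no level limit, a limit at the 75th percentile, a 2-fold rule, leaving out _x_ and _s_ probe sets, and averaging all probe sets of a gene. Differences were held to be kept if their call stayed and they moved by less than the spread. Counts were kept if they changed by at most 1.5 times, and the median if it moved by less than 0.1. Of 180 values, 164 were kept, and 0 called values reversed. Among these, 3 values near 0 changed sign: RRAGC 218088_s_at was at 0.0069 after quantile normalization, FLCN 243062_at at 0.0026 after centring and LAMTOR3 at -0.047 as a mean. RRAGD 221523_s_at ranged from -1.31 to -0.92 over both pseudocounts, centring and quantile normalization, and no other member probe set reached 1.5-fold there. The count of member probe sets lower, 1, became 0 at the 75th percentile, where that probe set drops out, and 0 without _x_ and _s_ probe sets, which removes both of RRAGD. As a mean over its probe sets RRAGD was at -0.77, past 1.5-fold, against -0.34 by the brightest. Of the genes around the Rags, the 2 lower became 1 with a pseudocount of 64 and at the 75th percentile, and 0 under the 2-fold rule and the mean; the 1 higher became 0 under each of these 4 and without _x_ and _s_ probe sets. The 4 MiT/TFE targets lower became 3 after quantile normalization, 2 with a pseudocount of 64, at the 75th percentile and without _x_ and _s_ probe sets, and 0 under the 2-fold rule. The cause of the changes with the pseudocount and the mean was not tested. No paired analysis was possible because each group holds 1 array.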

Other observations

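In the MiT/TFE target list, the probe sets of some lysosomal genes differed in sign. LAMP2, a lysosomal membrane protein, was 2490 with miR-99a against 2745 with si-GL2 by its brightest probe set (-0.14) and 1422 against 1142 by the next (0.31), and its 4 probe sets ranged up to 0.35. TPP1, a lysosomal peptidase, was at -0.17 and 0.04 by the brightest pair, and a probe set below the limit was at 0.70. ATP6V1C1, a subunit of the proton pump that acidifies the lysosome, was at -0.32 by the brightest, from 1313 against 1640, and its 4 probe sets ranged from -0.66 to 0.10. Those of CTSB ranged from -0.35 to 0.16 and those of LAMP1 from -0.38 to 0.12. Others kept 1 sign. PSAP, the precursor of the saposins, was at 0.15 and 0.38. The 3 probe sets of CLCN7, the lysosomal chloride exchanger, lay between -0.52 and -0.11. Only 1 of these, at -0.52, was past the limit.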
